A study of Mus musculus with 15 samples.

Results

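Genes of recent monocyte origin were followed in macrophages sorted from mouse ear skin. The 9 genes, chosen by name with earlier results of these data known, were Ccr2, Ly6c2, Plac8, S100a4, S100a6, F13a1, Thbs1, Fn1 and Vcan, among 42454 rows of the table. Each name was found in 1 row. With 8656 genes in all, 8 of the 9 passed the filter on low values, a mean of 100 normalized counts over the 15 libraries. Plac8 did not pass.

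All mice carried CX3CR1-creERT2/gfp and R26-tdT/+, which put GFP and an inducible Cre recombinase at the Cx3cr1 locus and a Cre-dependent red reporter at R26. The genotype tag names Cxcr1 where the protocol names CX3CR1. Tamoxifen was given to all of them, 3 weeks ahead of a punch through the left ear, and tissue was collected 10 days after that injury. CD11b+ CD64+ Lin- cells were sorted into 5 groups of 3 libraries. These were recruited nerve-associated macrophages of the punched ear (recsNAM, gate GFP+/Tomato-), resident nerve-associated macrophages of the punched ear (injsNAM) and of the unpunched ear (sNAM, gate GFP+/Tomato+ for both), and interstitial macrophages of the punched ear (injIM) and of the unpunched ear (IM, gate GFP-/Tomato- for both). Groups follow the titles, while the reporter tags of the injIM and sNAM libraries name other gates than the protocol does. Cells came from 3 mice, and the labels do not tie a library to a mouse, so the p-values below measure the spread between libraries that share animals. A resident cell that escaped Cre labelling would fall in the recruited gate, and the interstitial gates carry no record of when a cell arrived.

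Classical monocytes leave the bone marrow and enter injured tissue by way of Ccr2, the receptor for the chemokine Ccl2 and its relatives, and carry the surface protein Ly6C encoded by Ly6c2. Within tissue they turn into macrophages, lose Ccr2 and Ly6C, and take on genes of resident cells. S100a4 and S100a6 are small calcium-binding proteins, F13a1 is the A chain of the clot-crosslinking factor XIII, and Thbs1, Fn1 and Vcan encode the matrix proteins thrombospondin-1, fibronectin and versican, which fibroblasts make as well as monocytes.

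S100a4 and S100a6 lie close together on chromosome 3 and had the highest correlation among the 8 tested genes, so the 250 bases before their annotated starts are shown (RefSeq, GRCm38.p6, plus strand, 5′ to 3′). The windows are chr3:90603520-90603769 for S100a4 and chr3:90612644-90612893 for S100a6.
S100a4: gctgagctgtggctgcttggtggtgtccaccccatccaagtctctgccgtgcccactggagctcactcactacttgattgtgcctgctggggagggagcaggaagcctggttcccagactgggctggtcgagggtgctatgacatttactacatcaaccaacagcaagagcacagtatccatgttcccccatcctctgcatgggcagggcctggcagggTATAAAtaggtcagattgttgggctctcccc
S100a6: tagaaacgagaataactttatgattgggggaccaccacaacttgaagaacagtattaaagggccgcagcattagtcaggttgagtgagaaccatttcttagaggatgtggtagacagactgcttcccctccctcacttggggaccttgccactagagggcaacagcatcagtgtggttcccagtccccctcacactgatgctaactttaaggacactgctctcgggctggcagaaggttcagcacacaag
Capitals mark a match to TATAAA, the TATA box, which began 31 bases before the S100a4 start and is held by 12.4% of 32851 promoter windows of this length. The S100a6 window held none. Neither window held the AP-1 motif TGANTCA (in 6.75% of windows), the PU.1 motif GAGGAAGT (in 2.44%) or the E-box CACGTG (in 6.02%). Both strands were searched. The promoter table held 7 of the 9 genes.

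Levels are given as normalized counts, in which the authors scaled each library by 1 factor. Recovered depth ranged from 20442263 to 23420175 reads in recsNAM, from 16889283 to 19520105 in injsNAM, from 5636251 to 18632984 in sNAM, from 20397849 to 21931446 in injIM and from 20619909 to 23794162 in IM. Between 4.26% and 8.79% of tested genes had no read in injsNAM libraries and between 3.89% and 25.8% in sNAM libraries, against at most 0.751% in the other groups. The 25.8% belonged to sNAM replicate 2, the library with the fewest reads. The 10 markers shared by macrophages, among them Csf1r and the C1q genes, summed to between 14737 and 16648 CPM (reads scaled to a common library total) in recsNAM, between 11808 and 13975 in injsNAM, between 10937 and 13550.0 in sNAM, between 14798 and 15154 in injIM and between 17140.1 and 17918 in IM, with Aif1 at 0 in every library.

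**Figure D1:**
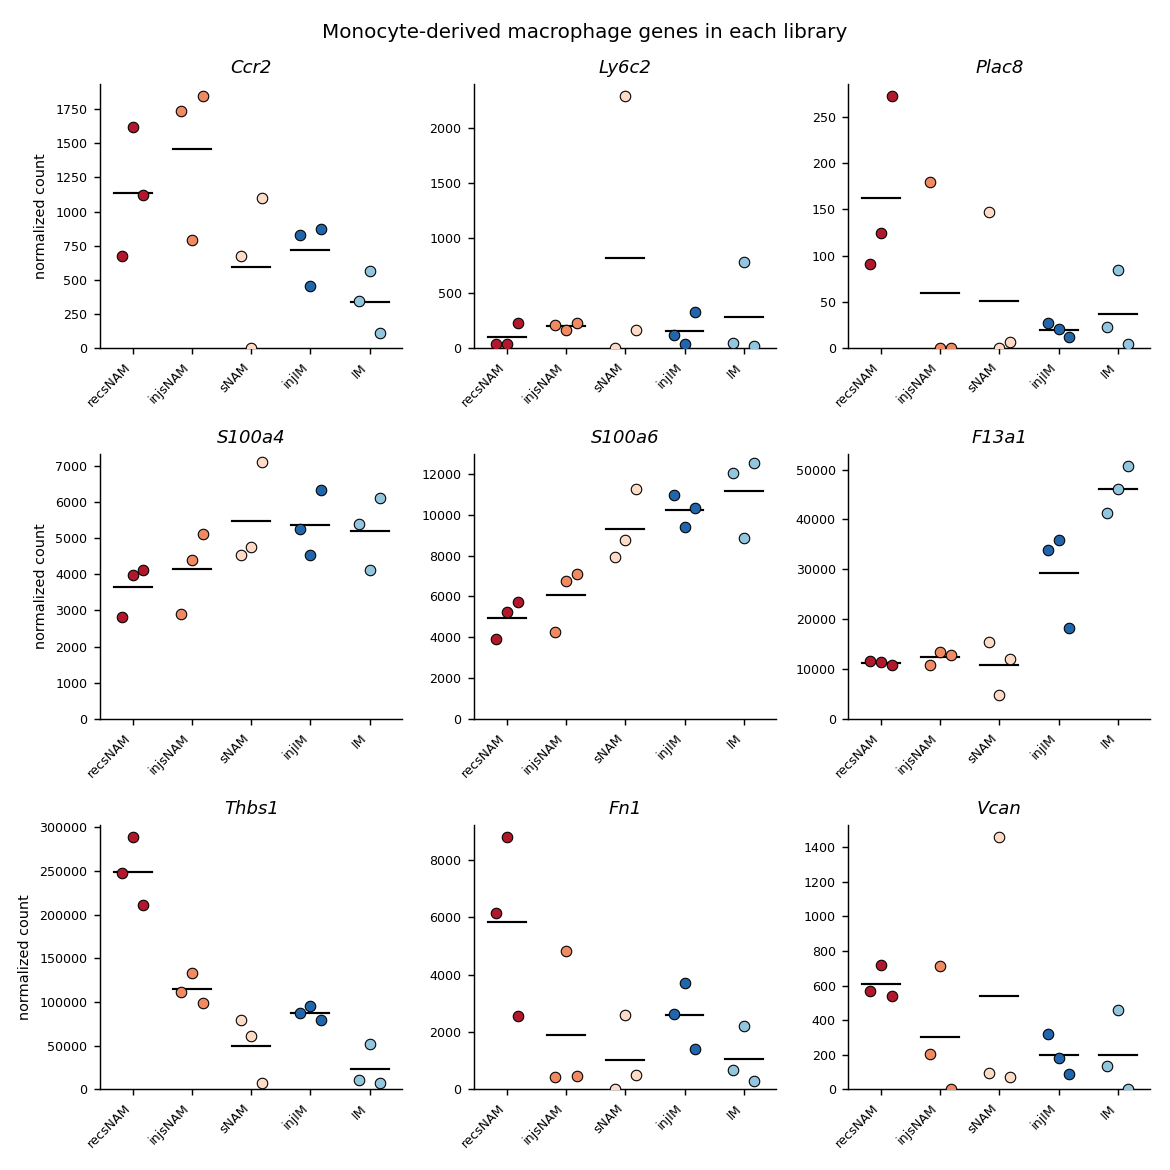
Normalized counts (y axis, linear, from 0, with a scale of its own in each panel) of the 9 genes in the 15 libraries (points, replicates 1 to 3 from left to right), with group means as lines. Every recsNAM library held at least 210608 normalized counts of Thbs1, above all other libraries, and every IM library held at least 41277 of F13a1, above all other libraries.

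The comparison of recsNAM with injIM asked whether genes of recent monocyte origin were higher in recruited nerve-associated than in interstitial macrophages of the same punched ears. None of the 8 tested genes rose and 2 fell, F13a1 and S100a6, where 3.19% of all 8656 genes rose and 4.34% fell (7.53% in either direction). The median log2 difference was 0.11 for the 8 genes and -0.02 for all tested genes. Tests used limma on log2(normalized count + 100), adjusted by Benjamini-Hochberg over all tested genes, with a call where the adjusted p was under 0.05. Log2 differences on this scale understate the change of low genes. EdgeR, run as an alternative on recovered reads, called 9 of all 8656 genes in this comparison. An alternative fit with a term for replicate number (the replicate block) called 6 of the 8 genes and 1211 of all 8656. Thbs1, Vcan and Fn1 were higher in that fit, and F13a1, S100a6 and S100a4 lower. The labels do not say what a replicate number stands for.

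F13a1 (chromosome 13, 36867178 to 37050244, GRCm38) measured 11576, 11463 and 10738 normalized counts in recsNAM replicates 1, 2 and 3, against 33800.0, 35813 and 18293 in injIM. Every recsNAM library was below every injIM library, with a log2 difference of -1.31 (SE 0.22, limma adjusted p = 0.000652). S100a6 (chromosome 3, 90612894 to 90614414) measured 3930.5, 5247 and 5711 in recsNAM, against 10986, 9415 and 10319 in injIM. Its groups did not overlap either, with a log2 difference of -1.04 (SE 0.16, adjusted p = 0.000402). Both calls ended with edgeR on recovered reads (adjusted p = 0.234 for F13a1 and 0.153 for S100a6) and with a pooled spread (0.143 for F13a1 and 0.0676 for S100a6), and held with DESeq2 (0.00465 for F13a1 and 0.00171 for S100a6).

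S100a4 (chromosome 3, 90603770 to 90606045), which lies close to S100a6, measured 2825, 3966 and 4115 normalized counts in recsNAM, against 5239, 4536 and 6322 in injIM. The groups did not overlap, and the gene was not called (log2 difference -0.56, 95% confidence interval -0.94 to -0.17, adjusted p = 0.0785). It passed without recsNAM replicate 3 (adjusted p = 0.0486), without IM replicate 2 (0.0432) and with the replicate block.

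Of 8 other tested genes of the S100 family and its annexin partners, 2 fell in recsNAM against injIM and none rose. Anxa2 (17930.3 ± 3954 in recsNAM, 27924 ± 2997 in injIM, adjusted p = 0.00587) and Anxa1 (11099 ± 2065 in recsNAM, 17690.3 ± 1748 in injIM, adjusted p = 0.00972) bind membranes in a calcium-dependent way (SD, n = 3 each, here and below). Both calls ended with edgeR (adjusted p = 0.516 for Anxa2 and 0.721 for Anxa1), with a pooled spread (0.233 for Anxa2 and 0.439 for Anxa1) and without recsNAM replicate 1 (0.106 for Anxa2 and 0.157 for Anxa1), Anxa2 also ended with only the 2 groups in the fit (0.0694), and Anxa1 with DESeq2 (0.198), without a filter (0.0748) and without injIM replicate 1 (0.0675). Among paralogs that were not called, S100a10, whose product binds Anxa2, measured 6817 ± 1477 in recsNAM and 9448 ± 1077 in injIM, and S100a11 measured 2070.3 ± 500.5 in recsNAM and 2097 ± 553 in injIM. S100a8 and S100a9, abundant in neutrophils and classical monocytes, stayed low. The highest S100a8 value was 66.2 in recsNAM and 70.4 in injIM, and the highest S100a9 value was 35.8 in recsNAM and 10.7 in injIM. The 11 neutrophil markers summed to between 94.9 and 149 CPM (reads scaled to a common library total) in recsNAM and between 83.6 and 117 in injIM. Csf3r made up 94.7% of the sum in recsNAM and 92.4% in injIM. Ly6g, Ltf and Elane were at 0 in both groups, while Retnlg, Ngp, Cxcr2 and Camp were at 0 in recsNAM and had reads in injIM.

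The matrix genes had higher means in recsNAM than in injIM without being called by the main test. The replicate block called Thbs1, Vcan and Fn1 as higher, though what a replicate number stands for is not known. Thbs1 (chromosome 2, 118111876 to 118127133) had 247666, 288822 and 210608 normalized counts in recsNAM and 87424, 94972 and 79641 in injIM. All recsNAM libraries were above all injIM libraries, and the ratio of means was 2.85 (log2 difference 1.5, 95% confidence interval 0.19 to 2.82, adjusted p = 0.186). The fit takes 1 residual spread per gene, scaled by 1 weight per group that all genes share (0.175 for sNAM and 3.43 for IM). Thbs1 differed up to 1.37-fold among the recsNAM libraries, 1.35-fold in injsNAM, 10.4-fold in sNAM, 1.19-fold in injIM and 6.98-fold in IM. With a library left out the adjusted p ran from 0.00018 to 0.528. It was 0.00018 without IM replicate 2, 0.035 without IM replicate 3, and 0.00144 with only the libraries of the 2 groups in the fit, an alternative added after the data were seen. Neither edgeR (adjusted p = 1.0) nor DESeq2 (0.483) called Thbs1.

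Vcan (chromosome 13, 89655309 to 89743027) measured 568, 719 and 538 normalized counts in recsNAM, against 322, 185 and 88.1 in injIM. The groups did not overlap (log2 difference 1.32, 95% confidence interval 0.21 to 2.42, adjusted p = 0.160). Vcan passed with only the 2 groups in the fit (0.0411) and with the replicate block. Fn1 (chromosome 1, 71585473 to 71653280) measured 6157, 8778 and 2544 in recsNAM, against 2632, 3696 and 1399 in injIM, with overlap (log2 difference 1.08, 95% confidence interval -0.38 to 2.54, adjusted p = 0.448). Fn1 passed with the replicate block. It was highest in the library numbered 2 in all 5 groups, and Vcan and Thbs1 in 4 of the 5. Among all tested genes, 11.4% had every recsNAM library above every injIM library and 12.5% had every one below, where 2 of the 8 genes here were above and 3 below.

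The 10 fibroblast markers summed to 46.4, 274 and 280 CPM in recsNAM, against 425, 299.6 and 1096 CPM in injIM. Of the 6 tested, Dcn and Col6a1 fell and none rose. Of the alternatives run, 8 ended the call of Dcn and 17 that of Col6a1, edgeR among them (adjusted p = 1.0 for both). Without recsNAM replicate 1 the adjusted p was 0.276 for Dcn and 0.487 for Col6a1. The call of Dcn also ended without recsNAM replicate 3 (0.0803) or injIM replicate 2 (0.0658), and that of Col6a1 ended with any of 12 of the 15 libraries left out. Platelets carry both Thbs1 and F13a1. The 8 platelet markers summed to between 1.37 and 10.5 CPM in recsNAM and between 1.78 and 6.72 CPM in injIM, and the platelet chemokine gene Ppbp was at 0 in both groups. The part of such cells in the levels of Thbs1, Fn1, Vcan and F13a1 was not tested. In bulk libraries fewer cells of a type and less RNA per cell cannot be told apart.

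Over all groups, Thbs1 also had 112020.0, 133346 and 99031 normalized counts in injsNAM, 79520.1, 61483 and 7614 in sNAM, and 11320.3, 51575 and 7392 in IM. By group means recsNAM came first, followed by injsNAM, injIM, sNAM and IM. The ranges of neighbours in that order did not overlap except between sNAM and IM, although the highest sNAM library, at 79520.1, lay just below the lowest injIM library, at 79641.

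As CPM per kilobase of annotated exon (GENCODE M21), a scale on which genes can be set beside each other, the level of Thbs1 was 2500 ± 481 in recsNAM and 221 ± 233 in IM. It was the highest of the 9 genes in recsNAM. In IM the levels of S100a4 (505 ± 92.03), S100a6 (462 ± 77.9) and F13a1 (388 ± 38.1) were above it. On the same scale Vcan stood at 2.56 ± 0.495 in recsNAM and 0.786 ± 0.939 in IM, and Ly6c2 at 2.25 ± 2.24 in recsNAM and 6.0 ± 9.10 in IM.

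Of the genes of circulating monocytes, Ccr2 (chromosome 9, 124101918 to 124109140) measured 676, 1620.0 and 1118 normalized counts in recsNAM, 1735, 793 and 1843 in injsNAM, and 678, 0 and 1097 in sNAM. It measured 827, 456 and 873 in injIM and 345, 567 and 112 in IM. The ranges of recsNAM and injIM overlapped (log2 difference 0.57, 95% confidence interval -0.29 to 1.42, adjusted p = 0.520). The order of the means was injsNAM, recsNAM, injIM, sNAM and IM, and the ranges of neighbours in that order overlapped throughout.

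T and natural killer cells and dendritic cells also use Ccr2. The 10 T, natural killer and B cell markers summed to 10.9, 15.4 and 13.4 CPM in recsNAM, 461, 26.2 and 415 in injsNAM, 174, 9.58 and 396 in sNAM, and between 7.21 and 11.4 in the injIM and IM libraries. In recsNAM, injsNAM, sNAM and injIM the library with the lowest sum also had the lowest Ccr2, and in IM it did not. In sNAM that library was replicate 2, which had the fewest reads and 25.8% of tested genes at 0. The 10 dendritic cell markers summed to between 362 and 524 CPM in recsNAM, between 483 and 958 in injsNAM, between 1666 and 2735 in sNAM, between 104 and 280.1 in injIM and between 302 and 666 in IM. In recsNAM against injIM, 2 of the 7 tested markers rose and 0 fell. These were Ccr7 (4936 ± 1829 in recsNAM, 214 ± 120 in injIM, adjusted p = 6.09e-07) and Flt3, and the call of Flt3 ended with edgeR (adjusted p = 0.290) and a pooled spread (0.382). Ccr7 made up 68.9% of the sum in recsNAM, and Cd209a 70.1% of that in injIM. The part of such cells in the Ccr2 level was not tested.

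Ly6c2 (chromosome 15, 75108161 to 75112066) measured 42.8, 41.3 and 227 normalized counts in recsNAM, 215, 172 and 233 in injsNAM, and 0, 2291 and 167 in sNAM. It measured 118, 42.9 and 328 in injIM and 54.1, 786 and 19.0 in IM. The highest library was sNAM replicate 2, in which Ccr2 had no read, and the next was IM replicate 2. The ranges of recsNAM and injIM overlapped (log2 difference -0.34, 95% confidence interval -1.84 to 1.17, adjusted p = 0.872). Reference transcripts of Ly6c2 and its paralog Ly6c1 are 95.02% identical, so reads could have been split or lost between them and the level of Ly6c2 is uncertain. Ly6c1 reached at most 28.5 normalized counts in any library.

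Over the 15 libraries the genes most like Ly6c2 on log2(normalized count + 100) were Ifi205 (Pearson's r = 0.83) and Ms4a4c (r = 0.82). Chil3, another classical monocyte gene, was picked after its values were seen. It measured 192, 243 and 183 normalized counts in recsNAM, 0 in all of injsNAM, and 0, 719 and 0 in sNAM. It measured 140.4, 138 and 285 in injIM and 22.8, 495 and 43.2 in IM. Like Ly6c2 it was highest in replicate 2 of sNAM and of IM.

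Plac8 (chromosome 5, 100551589 to 100572253), a gene of classical monocytes and other blood cells, was below the filter. It measured 91.1, 124 and 272 normalized counts in recsNAM, 179.5, 0 and 0 in injsNAM, and 147, 0 and 7.40 in sNAM. It measured 27.1, 21.0 and 12.1 in injIM and 22.8, 84.8 and 4.32 in IM. Every recsNAM library was above every injIM and IM library, and the ratio of means of recsNAM to injIM was 8.08 (exact two-sided permutation test p = 0.1, the smallest that 3 against 3 libraries allow).

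**Figure D2:**
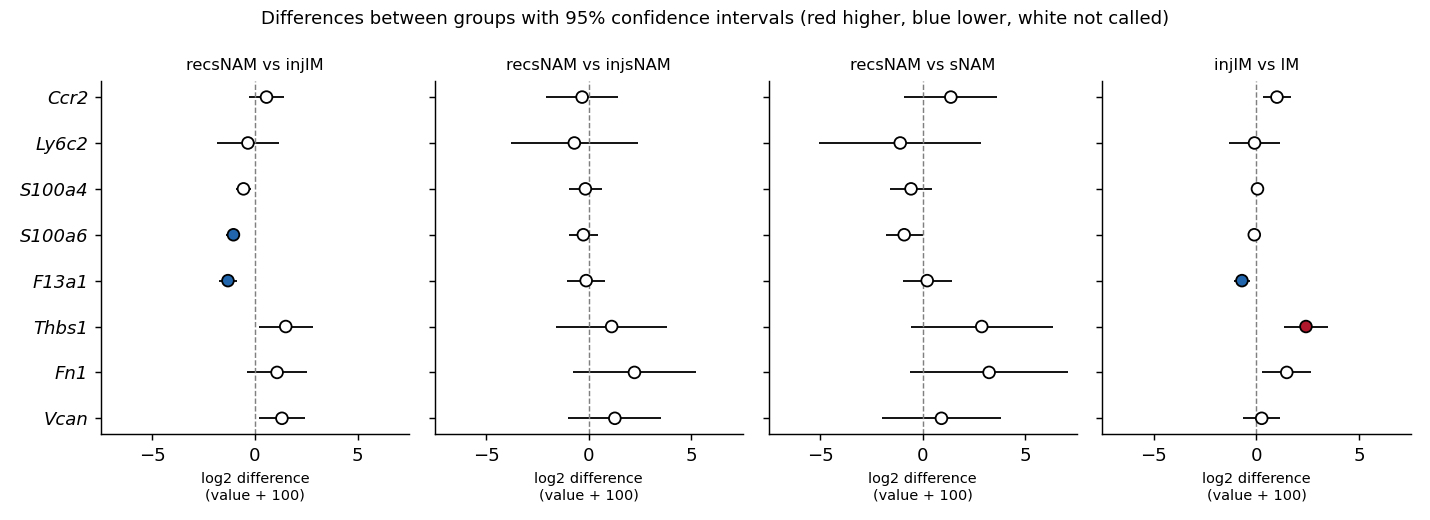
Differences of log2(normalized count + 100) (x axis) with 95% confidence intervals (lines) for the 8 tested genes (rows) in 4 comparisons (panels), with red for higher, blue for lower and white for not called. F13a1 and S100a6 fell in recsNAM against injIM, and Thbs1 rose and F13a1 fell in injIM against IM, while no gene was called against injsNAM or sNAM.

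Other classical monocyte genes were split between directions. Of 14 tested, 3 rose and 2 fell in recsNAM against injIM. The endotoxin co-receptor Cd14 (195902 ± 38296 in recsNAM, 96114 ± 11680.2 in injIM, adjusted p = 0.000141), the protease Napsa (2391 ± 242 in recsNAM, 1181 ± 236 in injIM, adjusted p = 0.0091) and the chemokine receptor Ccr1 rose. The transcription factor genes Klf4 (1465 ± 653 in recsNAM, 3326 ± 219.9 in injIM, adjusted p = 0.00389) and Irf4 fell. With edgeR, which called 9 of all 8656 genes, 0 of the 14 genes were called (adjusted p = 0.0703 for Cd14 and 1.0 for Napsa and Klf4). With DESeq2 1 rose and none fell (0.562 for Napsa and 0.764 for Klf4). Napsa and Klf4 were also lost with a pooled spread, without a filter and without recsNAM replicate 1 (0.0984 for Napsa and 0.0832 for Klf4), and Napsa without injIM replicate 1 (0.0599). Of 4 tested genes of patrolling monocytes, the integrin gene Itgal rose (1368 ± 504 in recsNAM, 466 ± 51.9 in injIM, adjusted p = 0.0122) and the nuclear receptor gene Nr4a1 fell (2886 ± 1159 in recsNAM, 4807 ± 891 in injIM, adjusted p = 0.0293). Both were lost with edgeR (adjusted p = 1.0 for Itgal and 0.923 for Nr4a1), DESeq2 (0.957 for Itgal and 0.351 for Nr4a1), a pooled spread and no filter, and Nr4a1 with only the 2 groups in the fit. Both were also lost without recsNAM replicate 1 (0.182 for Itgal and 0.375 for Nr4a1), without recsNAM replicate 2 (0.0546 for Itgal and 0.0714 for Nr4a1) and without injIM replicate 1 (0.0552 for Itgal and 0.121 for Nr4a1), and Nr4a1 without injIM replicate 2 (0.104). Cx3cr1, whose locus carries the sorting reporter, was below the filter, at 143 ± 40.7 in recsNAM and 10.5 ± 11.7 in injIM. By the protocol recsNAM was gated GFP+ and injIM GFP- on that reporter, so the sort itself selected for this difference.

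Of 13 tested resident macrophage genes, 9 fell in recsNAM against injIM and 1 rose, Timd4, with a median log2 difference of -1.22. The growth factor gene Gas6 (5266 ± 575 in recsNAM, 13741 ± 1238 in injIM, adjusted p = 2.56e-06), the haemoglobin scavenger receptor gene Cd163 (1557 ± 420.3 in recsNAM, 9054 ± 3132 in injIM, adjusted p = 7.79e-06) and the selenium carrier gene Selenop (22675 ± 5597 in recsNAM, 52107 ± 418 in injIM, adjusted p = 8.45e-05) fell. With edgeR, which called 9 of all 8656 genes, 2 of the 13 fell and none rose, Selenop not being called (adjusted p = 0.139). With DESeq2 4 fell and 1 rose. Gas6 and Cd163 were called under all 22 alternatives. The 14 listed genes summed to 4272 ± 484 CPM in recsNAM, 5416 ± 577 in injsNAM, 4558 ± 1403 in sNAM, 8074 ± 548 in injIM and 11033 ± 906 in IM, so the sums of all 3 nerve-associated groups were below those of both interstitial groups. In recsNAM, limma called 0 of the 13 against injsNAM and 0 against sNAM, where it called 0.0% and 0.208% of all tested genes. EdgeR called 0 and 2 of the 13 and DESeq2 1 and 4, and their counts over all genes are given below. In sNAM against IM the median log2 difference was -1.61, with 1 gene higher and 2 lower. There 0.543% of all tested genes rose and 0.508% fell. F13a1, which also fell in recsNAM against injIM, was most like Aplp2 (r = 0.95) and Timp2 (r = 0.95) over the 15 libraries.

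Of 7 tested ligands of Ccr2 and their kin, 6 fell in recsNAM against injIM and none rose. The Ccr2 ligand Ccl2 measured 3230.5, 3922 and 7010 normalized counts in recsNAM, against 21596, 16647 and 15759 in injIM. The ranges did not overlap (log2 difference -1.97, SE 0.21, adjusted p = 9.12e-06). The chemokine genes Ccl7 (7061 ± 2687 in recsNAM, 19288 ± 703 in injIM, adjusted p = 0.00012) and Ccl8 (7141 ± 2703 in recsNAM, 27409 ± 6006 in injIM, adjusted p = 0.000181) also fell. With edgeR none of these 3 was called (adjusted p = 0.0755 for Ccl2, 0.338 for Ccl7 and 0.692 for Ccl8). Ccl7 and Ccl8 were also lost with a pooled spread (0.113 for Ccl7 and 0.322 for Ccl8) and Ccl8 with DESeq2 (0.198). Of the 7 ligand genes, 0 were called with edgeR, which called 9 of all 8656 genes, and 2 fell with DESeq2.

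**Figure D3:**
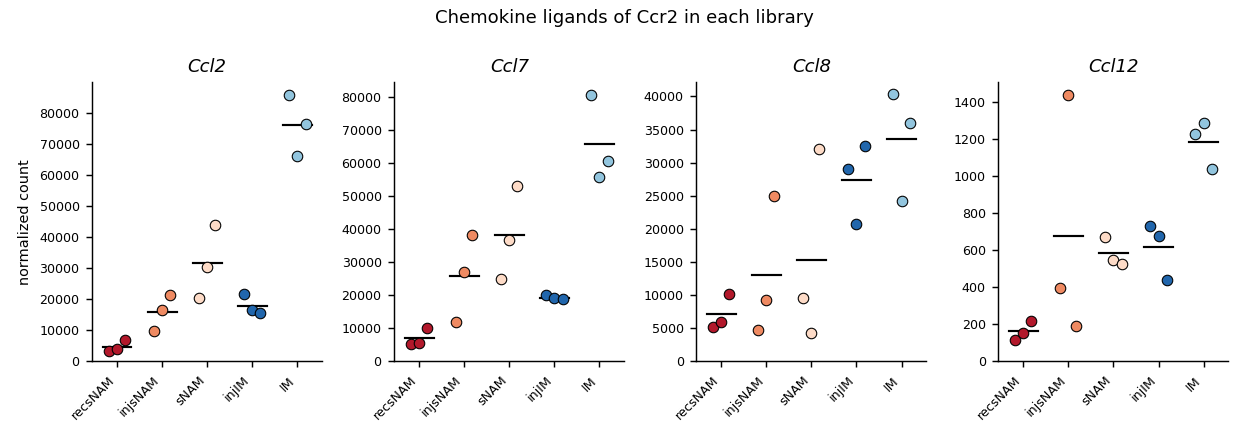
Normalized counts (y axis, linear, from 0, with a scale of its own in each panel) of Ccl2, Ccl7, Ccl8 and Ccl12, from the list of Ccr2 ligands and their kin, in each library (points), with group means as lines. Ccl2 lay between 3230.5 and 7010 in recsNAM, below all libraries of the other groups.

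Receptors of the matrix proteins were split. Of 12 tested receptor genes for fibronectin, versican and thrombospondin, 2 rose and 2 fell in recsNAM against injIM. The integrin gene Itgb5 (6640.4 ± 1642 in recsNAM, 2507 ± 343 in injIM, adjusted p = 0.00026) and the endocytic receptor gene Lrp1 rose. The thrombospondin and lipid receptor gene Cd36 (6901 ± 3089 in recsNAM, 17784 ± 5378 in injIM, adjusted p = 0.00108) and the proteoglycan gene Sdc4 (7099 ± 1048 in recsNAM, 11167 ± 952 in injIM, adjusted p = 0.00883) fell. With edgeR, which called 9 of all 8656 genes, 0 of the 12 were called (adjusted p = 0.135 for Itgb5, 0.372 for Cd36 and 1.0 for Sdc4). These 3 were also lost with a pooled spread (0.113 for Itgb5, 0.216 for Cd36 and 0.970 for Sdc4). Sdc4 was lost as well with DESeq2 (0.670), without a filter (0.0954), without recsNAM replicate 1 (0.151) and without injIM replicate 1 (0.0567).

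Of 9 tested clot, plasminogen and crosslinking genes, 1 rose and 3 fell in recsNAM against injIM. Tgm2, a transglutaminase like F13a1, rose (21148 ± 2298 in recsNAM, 10437 ± 1343 in injIM, adjusted p = 0.00398). The tissue factor gene F3 (29.3 ± 32.2 in recsNAM, 273 ± 136 in injIM, adjusted p = 0.00709), the plasminogen activator gene Plau (161 ± 127 in recsNAM, 744 ± 381 in injIM, adjusted p = 0.0116) and the clotting factor gene F7 fell. None of the 9 was called with edgeR (adjusted p = 0.540 for Tgm2, 1.0 for F3 and 0.523 for Plau), with a pooled spread or without a filter. Over all 8656 tested genes edgeR called 9. DESeq2 did not call Tgm2 (0.157) or Plau (0.0952), and no DESeq2 verdict is given here for F3. F3 was also lost without recsNAM replicate 1 (0.112), and Plau without recsNAM replicate 2 (0.0539) and without injIM replicate 1 (0.0918). Over the 15 libraries Thbs1 was most like Sema4d (r = 0.94) and Tgm2 (r = 0.94).

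Against injsNAM, the resident nerve-associated macrophages of the same ears, none of the 8 genes was called in limma. There 0.0% of all tested genes were called, 619 had an unadjusted p under 0.05, and edgeR called 6 genes and DESeq2 154, with 0 of the 8 among either. Thbs1 averaged 249032 ± 39125 normalized counts in recsNAM and 114799 ± 17325 in injsNAM. The groups did not overlap, with a ratio of means of 2.17 (log2 difference 1.12, 95% confidence interval -1.57 to 3.80, adjusted p = 0.984). All recsNAM libraries were above all injsNAM libraries for 7.29% of tested genes and below for 6.4%, and Thbs1 was the 1 gene of the 8 that did so in either direction.

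F13a1 (11259 ± 454 in recsNAM, 12338 ± 1295 in injsNAM), S100a4 (3635 ± 706 in recsNAM, 4141 ± 1126 in injsNAM) and S100a6 (4963 ± 924 in recsNAM, 6049 ± 1544 in injsNAM) overlapped between these groups. Their log2 differences had 95% confidence intervals from -1.06 to 0.80 for F13a1, from -0.96 to 0.63 for S100a4 and from -0.96 to 0.44 for S100a6. Fn1 measured 418, 4804 and 466 in injsNAM, and Vcan measured 207, 709.9 and 0. Both overlapped with recsNAM, with intervals from -0.75 to 5.2 for Fn1 and from -0.99 to 3.53 for Vcan.

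Against sNAM of the unpunched ears, none of the 8 genes was called in recsNAM by limma either. There 0.116% of tested genes rose and 0.0924% fell (0.208% in either direction), and 1139 had an unadjusted p under 0.05. Over all genes edgeR called 267 and DESeq2 805, and of the 8 edgeR called 0 and DESeq2 2. The median log2 difference was 0.57 for the 8 genes and 0.24 for all tested genes. Thbs1 was above sNAM in every recsNAM library, with a ratio of means of 5.03 (log2 difference 2.88, 95% confidence interval -0.58 to 6.34, adjusted p = 0.477). It was called without IM replicate 2 (adjusted p = 0.0367), with a pooled spread (0.0269) and by DESeq2 (0.0115). S100a6 had 7939, 8753 and 11270 normalized counts in sNAM, above every recsNAM library (log2 difference -0.90, adjusted p = 0.382). It was called with a pooled spread (adjusted p = 0.0296) and by DESeq2 (0.00296). S100a4, at 4543, 4742 and 7105 in sNAM, was also above every recsNAM library. For 14.8% of tested genes all recsNAM libraries were above all sNAM libraries, and for 7.89% below.

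The comparison of injIM with IM asked whether these genes were higher in interstitial macrophages of the punched ear. Of the 8 genes Thbs1 rose and F13a1 fell, where 4.15% of all tested genes rose and 4.03% fell (8.18% in either direction). EdgeR called 4 of all 8656 genes here. The median log2 difference was 0.15 for the 8 genes and 0.03 for all. For 13.5% of tested genes all injIM libraries were above all IM libraries and for 11.4% below, and of the 8 genes Thbs1 was above and F13a1 below.

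Thbs1 averaged 87346 ± 7666 in injIM and 23429 ± 24454 in IM (ratio of means 3.73, log2 difference 2.41, SE 0.50, limma adjusted p = 0.00814). It was lost without a filter (adjusted p = 0.071), with a pooled spread (0.477), with edgeR (1.0), with DESeq2 (0.157), with only the 2 groups in the fit (0.145) and without injIM replicate 1 (0.0673) or 2 (0.0694). F13a1 averaged 29302 ± 9587 in injIM and 46078 ± 4751 in IM, where its libraries held 41277, 46178 and 50778 (log2 difference -0.71, SE 0.18, adjusted p = 0.0155). It was lost without a filter (adjusted p = 0.200), with a pooled spread (1.0), with edgeR (1.0), with DESeq2 (0.641), with only the 2 groups (0.091) and without IM replicate 3 (0.0947).

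Ccr2 and Fn1 had higher means in injIM than in IM without being called. Ccr2 averaged 719 ± 229 in injIM and 342 ± 227 in IM, with overlap (log2 difference 1.00, 95% confidence interval 0.30 to 1.70, adjusted p = 0.0761). It passed without IM replicate 2 (adjusted p = 0.00864). Fn1 measured 673, 2209.5 and 305 in IM, overlapping with injIM (log2 difference 1.48, 95% confidence interval 0.29 to 2.66, adjusted p = 0.134). It passed without IM replicate 2 (adjusted p = 0.00218), without injIM replicate 3 (0.0484) and with the replicate block.

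IM replicate 2 was the highest IM library for 6 of the 9 genes, Ccr2, Ly6c2, Plac8, Vcan, Fn1 and Thbs1. Replicate 2 was highest for 4 of the 9 in recsNAM and injsNAM and for 3 in sNAM and injIM. The share over all tested genes was not counted. The 8 keratinocyte markers summed to 180.5 CPM in IM replicate 2, against 9.15 and 31.5 CPM in the other IM libraries, and their part in these levels was not tested. S100a4 (5366 ± 899.8 in injIM, 5205 ± 1008 in IM), S100a6 (10240.2 ± 789 in injIM, 11144 ± 1996 in IM) and Vcan (198 ± 118 in injIM, 198 ± 236 in IM) overlapped between these groups. Their intervals on the log2 scale ran from -0.27 to 0.36 for S100a4, from -0.39 to 0.17 for S100a6 and from -0.64 to 1.15 for Vcan.

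The lists around these genes were also followed in injIM against IM, where limma made the counts below. Of 14 classical monocyte genes 2 rose and 2 fell. Napsa (1181 ± 236 in injIM, 423 ± 127 in IM, adjusted p = 0.000124) and Ccr1 (4828 ± 261 in injIM, 2833 ± 182 in IM, adjusted p = 0.000204) rose, and Lyz1 and Cd14 fell. Of 12 matrix receptor genes 3 rose, with Itgb5 first (2507 ± 343 in injIM, 809 ± 192 in IM, adjusted p = 6.33e-06), followed by Itgav and Itgb7, and Sdc4 fell. Of 9 clot, plasminogen and crosslinking genes 3 rose and 2 fell. Tgm2 (10437 ± 1343 in injIM, 3624 ± 1212 in IM, adjusted p = 9.2e-06), F7 and F10 rose, and Thbd and Plaur fell. Of 7 ligands of Ccr2 and their kin 5 fell and none rose, with Ccl2 first (18000.5 ± 3145 in injIM, 76068 ± 9803 in IM, adjusted p = 4.65e-07). Of 13 resident macrophage genes 10 fell and 1 rose. The count that fell became 0 with edgeR, DESeq2, a pooled spread or no filter, and 4 with only the 2 groups in the fit. With a library left out, 3 to 11 of the 13 were called in either direction. EdgeR, which called 4 of all 8656 genes, called 0 genes of these 5 lists (adjusted p = 0.886 for Napsa, 1.0 for Ccr1, 0.139 for Itgb5, 0.270 for Tgm2 and 0.0562 for Ccl2). With a pooled spread Napsa (0.816), Ccr1 (0.970), Itgb5 (0.0842) and Tgm2 (0.0979) were lost as well, and with DESeq2 Napsa (0.0842) and Ccr1 (0.293). Lyz1 was lost with DESeq2 and without IM replicate 1 (0.0568) or 3 (0.0604). Of 8 S100 and annexin genes 0 were called by limma, edgeR or DESeq2.

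For injsNAM against sNAM, none of the 8 genes was called by limma, edgeR or DESeq2. Among all tested genes limma called 0.0%, with 586 at an unadjusted p under 0.05, edgeR called 135 genes and DESeq2 725. Thbs1 was above sNAM in every injsNAM library, with a ratio of means of 2.32 (log2 difference 1.76, 95% confidence interval -2.35 to 5.88, adjusted p = 0.938). S100a6, at 4278, 6751 and 7117 normalized counts in injsNAM, was below every sNAM library (log2 difference -0.63, adjusted p = 0.899). Groups of all tested genes were apart in this way for 7.35% above and 4.69% below.

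The test of the difference between the injury responses of resident nerve-associated and interstitial macrophages called none of the 8 genes by limma, edgeR or DESeq2. It called 0.0% of all tested genes in limma, with 444 at an unadjusted p under 0.05, while edgeR called 26 genes and DESeq2 228. For Thbs1 the interval of that difference ran from -4.89 to 3.6 on the log2 scale, and for F13a1 from -0.41 to 2.52.

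In the unpunched ear, none of the 8 genes was called by limma in sNAM against IM, where 0.543% of tested genes rose and 0.508% fell (1.05% in either direction) and 1297 had an unadjusted p under 0.05. F13a1 had 15512, 4742 and 12058 normalized counts in sNAM, all below the IM libraries (log2 difference -2.24, 95% confidence interval -3.41 to -1.08, adjusted p = 0.0528). It passed with edgeR (adjusted p = 0.00521), DESeq2 (6.15e-08), a pooled spread (0.00125), only the 2 groups in the fit (0.0128), and without injIM replicate 1 (0.0388), 2 (0.0317) or 3 (0.00665). For 18.4% of tested genes all sNAM libraries were below all IM libraries, as for F13a1, and for 9.57% above, as for none of the 8. Vcan measured 93.5, 1455 and 72.2 in sNAM and 133, 459.6 and 1.73 in IM, and was highest in replicate 2 of both groups.

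**Figure D4:**
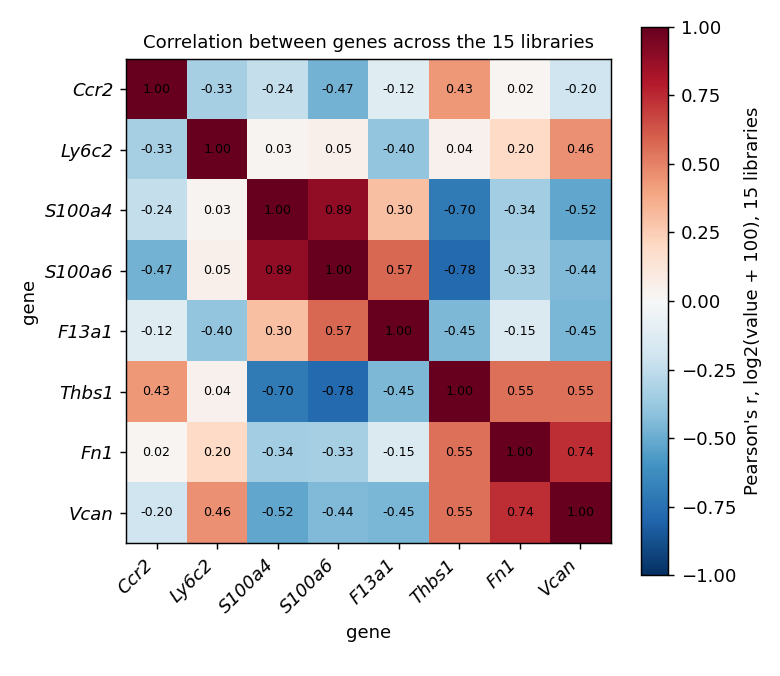
Pearson's r (colour and printed value) between the 8 tested genes on log2(normalized count + 100) over the 15 libraries. S100a4 and S100a6 stood at 0.89, Vcan and Fn1 at 0.74, and Thbs1 and S100a6 at -0.78.

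The genes did not vary as 1 set across the 15 libraries. S100a4 and S100a6 had the highest r (0.89), followed by Vcan and Fn1 (0.74). Thbs1 ran with Vcan (r = 0.55) and Fn1 (r = 0.55), and against S100a6 (r = -0.78) and S100a4 (r = -0.70). Ccr2 and Ly6c2, the genes of circulating monocytes, had an r of -0.33. These values are descriptions of libraries that share group structure, animals and depth.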

How the data were processed

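RNA-seq libraries were made from 250 pg of RNA with 13 PCR cycles, per the labels' protocols. The submitters' processing notes name bcl2fastq 2.18, STAR 2.7.2b, cutadapt, DESeq2 1.24.0, R 3.6.1 and mm10; the read counter, annotation and strand handling were not stated there. The deposited signal is a read count that the authors scaled by a library factor. In each library 100% of nonzero values were whole multiples, to a tolerance of 0.01, of the value of 1 read, so whole reads were recovered. PCR reads without molecular identifiers are not independent molecules. No pair of replicates agreed within read-sampling noise (lowest chi-square per degree of freedom 45.4).

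The main test was limma-trend 3.58.1 (R 4.3.3), robust, on log2(value + 100) for genes with a mean of 100 or more, with 1 mean and 1 weight per group (recsNAM 1.67, injsNAM 0.311, sNAM 0.175, injIM 3.21, IM 3.43) and Benjamini-Hochberg adjustment. Alternatives were a pseudocount of 10, no filter, a pooled spread without weights, edgeR 4.0.16 and DESeq2 1.42.0 on recovered reads, a replicate block, each library left out, and, chosen after seeing the data, only the 2 groups compared. The 9 genes and the lists were chosen with earlier results of these data known. Named are the 9 genes, their listed paralogs, the 2 genes most like some of them by Pearson's r, and at most 3 called genes per list by adjusted p; further called genes given without values, and Chil3, were named after their values were seen. Coordinates are RefSeq on GRCm38. A few listed genes are not reported here.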

Additional observations from a re-analysis of the deposited data

How the results depend on the processing

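Of the 8 genes, the number called in recsNAM against injIM was 2, and became 0 with edgeR, 0 with a pooled spread, 4 with only the 2 groups, and 2 to 4 with a library left out. In injIM against IM it was 2, and became 0 with no filter, a pooled spread, edgeR, DESeq2 or only the 2 groups, and 1 to 4 with a library left out. In recsNAM against sNAM it was 0, and became 2 with a pooled spread or DESeq2 and 0 to 1 with a library left out. In sNAM against IM it was 0, and became 1 with a pooled spread, edgeR, DESeq2 or only the 2 groups and 0 to 1 with a library left out.

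Over all genes, DESeq2, edgeR, a pooled spread and no filter called 121, 9, 22 and 362 in recsNAM against injIM (652 as reported; 272 to 898 with a library left out), 154, 6, 2 and 12 in recsNAM against injsNAM (0; 0 to 39), 64, 4, 18 and 315 in injIM against IM (708; 399 to 827), 725, 135, 363 and 4 in injsNAM against sNAM (0; 0 to 1), and 228, 26, 4 and 6 for the difference of injury responses (0). DESeq2, edgeR, a pooled spread and a pseudocount of 10 called 805, 267, 599 and 0 in recsNAM against sNAM (18; 0 to 31) and 922, 332, 727 and 0 in sNAM against IM (91; 0 to 108). The cause was not tested.

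The replicate block called 6 of the 8 genes in recsNAM against injIM, adding Vcan, Fn1, S100a4 and Thbs1, and 1211 genes in all; in injIM against IM it called 3 and added Fn1. In recsNAM against sNAM it called 38 genes. The labels do not say what a replicate number stands for. The same-numbered libraries deviated together with r over 0.1 in 9 of 30 pairs (-0.021 to 0.388), and 14 of 15 libraries correlated best with their own number.

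Of 2464 alternative values for single genes, 2165 stayed on their side of the threshold, 273 lost the call and 26 gained one; no called value changed sign. From the other lists at most 3 calls per list and comparison were followed, those with the smallest adjusted p, 57 in all. Of these 57, 46 were lost with edgeR, 40 with a pooled spread, 26 with no filter, 20 with DESeq2 (genes it gave no adjusted p left out), 12 with a pseudocount of 10, 12 with only the 2 groups and 0 with the replicate block. Up to 25.8% of tested genes had no read in an sNAM library, and within sNAM that share did not follow depth (11.6% at 18632984 reads in replicate 1, 3.89% at 9086996 in replicate 3).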
